A study of Mus musculus with 6 samples.

Results

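T lymphocytes of mouse kidney were described here in 3 single-cell RNA sequencing libraries, and they numbered 730 of the 24212 kidney cells that passed the cell limits. The whole series held 6 libraries, 3 of kidney and 3 of mammary tumor, with 58561 cell barcodes in the files, of which 41774 passed the limits. A cell was taken as a T lymphocyte when it held at least 2 unique molecular identifiers (UMIs, each counting 1 captured RNA molecule) of Cd3d, Cd3e and Cd3g together, no UMI of the B cell gene Cd79a or the natural killer (NK) cell gene Ncr1, at most 2 UMIs of the macrophage genes C1qa, C1qb and C1qc together, and at most 2 UMIs of the endothelial gene Pecam1. Cells had 200 to 3000 detected genes and at most 50% mitochondrial UMIs. The members were thus chosen by their own measured values, so their Cd3 levels are a description and not a finding.

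All kidney libraries came from male C57BL/6 mice of 12 weeks, with no transgene or drug given, and they differed in how the tissue was taken apart. In the control, minced kidney was digested for 60 min with collagenase in a shaken tube and then pipetted and vortexed. In the platform libraries, minced tissue was digested by recirculating collagenase through a microfluidic device and passed once through a dissociation and filter device, and cells were collected after 15 min (15 min interval) and then from the tissue that remained, up to 60 min (60 min interval). Dead cells stained by SytoxBlue were removed by sorting in each condition, and no sort for leukocytes was made. The tumor libraries, used for comparison only, came from female MMTV-PyMT mice of 10 weeks, in which a viral promoter active in mammary epithelium drives the polyoma middle T oncogene. Each condition was 1 library, so no difference between conditions could be set against a replicate, and no test was made between them. By the study's methods, the conditions of a tissue shared 1 source mouse, so the spread between mice was not measured. Intervals are exact 95% intervals and cover counting error only.

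T lymphocytes recognize antigen through a receptor whose chains are assembled from gene segments and which signals through the CD3 chains. Most carry alpha and beta receptor chains with either the CD4 or the CD8 coreceptor, and naive and central memory cells recirculate through lymph nodes while effector and resident memory cells stay in tissues. Immediate early genes are known to follow engagement of the receptor, and heat shock genes to follow heat and other stress to proteins.

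The label was checked on receptor genes that the rule did not use. A UMI of a T cell receptor constant gene (Trac, Trbc1 or Trbc2) was found in 724 of the 730 cells, or 99.2%. Such a UMI was also found in 143 of 184 NK cells (77.7%, cells with an Ncr1 UMI and no Cd3 UMI), so it does not separate T lymphocytes from NK cells. The Cd3 genes had a median of 12 UMIs per cell and a range from 2 to 51. At the threshold, all 15 cells with a Cd3 sum of 2 held a receptor constant UMI at a median depth of 1550 UMIs, while of the 92 otherwise eligible cells with a Cd3 sum of 1, just outside, 12 did (13.0%) at a median depth of 5053.5 UMIs. Of the 21 cells with a Cd3 sum of 3, 17 did (81.0%), at a median depth of 1841 UMIs.

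Depth was close among the libraries. By the study's methods, mapped reads were normalized between the libraries of a tissue when these were joined, so the depth of T lymphocytes before that step is not known here. The study's supplement gives mean reads per cell for each whole library and calls its sequencing metrics similar among conditions. The T lymphocytes held 967094 UMIs in the control, 645776 in the 15 min interval and 2397723 in the 60 min interval, with medians of 5205, 5364 and 5206 UMIs and of 1695, 1650 and 1683 genes per cell. Mitochondrial genes gave 7.15%, 5.77% and 9.09% of these UMIs, and ribosomal protein genes 31.5%, 35.5% and 30.7%. Among kidney barcodes 309 occurred in more than 1 library, and 6 T lymphocytes carried such a barcode. The gene limit removed 9, 9 and 54 cells that met the rest of the rule in the control, 15 min and 60 min libraries, and no doublet caller was run.

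The share of T lymphocytes among kept cells was lowest in the 15 min interval. It was 2.94% in the control (173 of 5886 cells, 2.52% to 3.40%), 1.36% in the 15 min interval (114 of 8390, 1.12% to 1.63%) and 4.46% in the 60 min interval (443 of 9936, 4.06% to 4.88%). The 60 min share was 1.52 times the control share and 3.28 times the 15 min share, and none of the 3 counting intervals overlapped. Among cells with a UMI of Ptprc, which encodes the leukocyte surface protein CD45, the order was different: T lymphocytes were 12.2% of such cells in the control (10.5% to 14.0%), 20.7% in the 15 min interval (17.3% to 24.4%) and 14.3% in the 60 min interval (13.0% to 15.6%). The denominators moved with the condition, since cells with a Ptprc UMI numbered 1364, 526 and 3009 and proximal tubule cells, taken by 2 or more UMIs of Slc34a1 and none of Cd3, Cd79a or Ncr1, numbered 2801, 7144 and 3039. Numbers of T lymphocytes per mass of tissue were not measured, so more T lymphocytes and fewer other cells cannot be told apart.

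**Figure D1:**
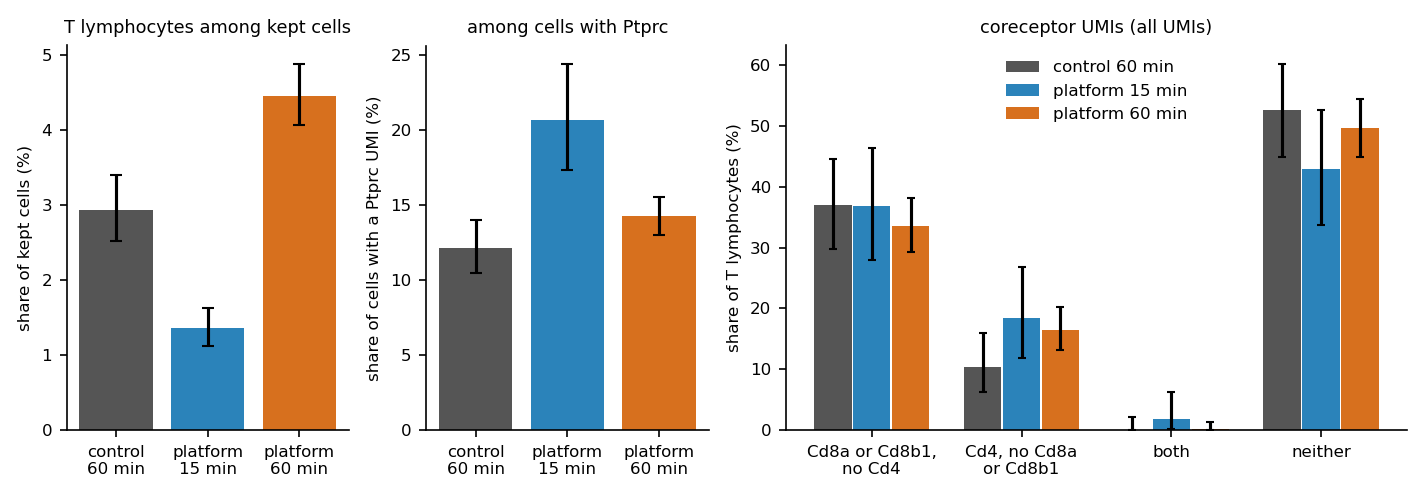
Bars give the share of T lymphocytes among kept kidney cells (left, %), among cells with a Ptprc UMI (middle, %) and, within T lymphocytes, the share of cells by coreceptor UMIs (right, %), for 1 library per condition; error bars are exact 95% binomial intervals for counting error. The 15 min bar is the lowest on the left at 1.36% and the highest in the middle at 20.7%, while the Cd8 bars on the right lie between 33.6% and 37.0%.

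The genes that led in T lymphocytes over the other lymphocytes of the kidney follow. The comparison is the one the rule made, so its values are a description. Over B lymphocytes (1145 cells with 2 or more Cd79a UMIs and no Cd3 or Ncr1 UMI), the genes with the highest ratio in the library where each was least different were Trbc2, Cd28, Trbc1, Cxcr6, Trac, Cd8b1, Thy1, Ifng, Skap1 and Nkg7. Cd28, a costimulatory receptor, was between 345 and 594 CPM (UMIs of the gene per 1000000 UMIs summed over the cells) in T lymphocytes and between 0.967 and 2.44 CPM in B lymphocytes. Cxcr6, a chemokine receptor of tissue memory cells, was between 432 and 579 CPM in T lymphocytes and at most 1.67 CPM in B lymphocytes. Some of these genes lead over B lymphocytes only, since in cells thinned to 2000 UMIs a Cxcr6 UMI was found in 25.4%, an Nkg7 UMI in 91.0% and an Ifng UMI in 27.1% of NK cells. Over the 184 NK cells, the 10 leading genes were Trac, Gm8369, Ifi27l2a, Cd8b1, Ccr7, Gm12840, Cd8a, Bcl11b, Rgs10 and Ms4a6b. Bcl11b, a transcription factor of the T lineage, was between 209 and 302 CPM in T lymphocytes and between 8.83 and 21.6 CPM in NK cells.

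For the comparisons among libraries, the UMIs of all T lymphocytes of a library were summed and scaled to CPM, and 1153 genes with a mean of at least 100 CPM over the 3 libraries were compared. A gene is counted below when 2 libraries differed at least 2-fold. In the 15 min interval over the control, 5 genes (0.434%) were at least 2-fold higher and 57 (4.94%) at least 2-fold lower. In the 60 min interval over the control, 7 genes (0.607%) were higher and 1 gene (0.0867%) was lower. In the 60 min over the 15 min interval, 75 genes (6.50%) were higher and 5 (0.434%) lower. The medians of all 1153 log2 ratios lay between -0.04 and -0.00, and the 3 pairs share libraries, so that a low value in the 15 min library enters 2 of them.

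Heat shock genes were among the genes with the lowest ratios of the 15 min interval to the control. Of the named genes only S100g (log2 -7.05) had a lower ratio than Hspa1a and Hspa1b, and genes outside the list came next. The products of heat shock genes are chaperones that hold or refold damaged proteins, and the genes are switched on by heat and other stress. Of 12 genes on the list 11 passed the level filter, all 11 were below the control in the 15 min interval, and 6 of them were at least 2-fold lower, beside 4.94% of all genes. The median log2 ratio of the list was -1.29 for the 15 min interval over the control, -0.11 for the 60 min interval over the control and 1.40 for the 60 min over the 15 min interval, where 7 of 11 were at least 2-fold higher beside 6.50% of all genes. The 12 genes together had 12722 CPM in the control, 4588 CPM in the 15 min interval and 10714 CPM in the 60 min interval.

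Hspa1a, an inducible chaperone of the HSP70 family, was at 1966 CPM in the control, 48.0 CPM in the 15 min interval and 1051 CPM in the 60 min interval. The log2 ratio of the 15 min interval to the control was -5.36 (-5.92 to -4.85), and the 60 min interval was 21.9-fold (15.4 to 32.3) above the 15 min interval. Hspa1b, its near-identical neighbor, was at 708, 27.9 and 505 CPM in the same order. Reads of these copies can be split between them in either direction, so their separate levels are uncertain, but both were lowest in the same library. Hsp90aa1, the inducible HSP90 chaperone, was at 1937, 359 and 1438 CPM, and Dnajb1, a cochaperone of HSP70, was at 427, 63.5 and 435 CPM. Hsph1, a nucleotide exchange factor of HSP70, was at 235, 35.6 and 302 CPM. For these 3 genes the control and the 60 min interval lay on the same side, several fold above the 15 min interval. Of the 31 Hspa1a UMIs in the 15 min interval, 1 cell held 35.5%. The constitutive members differed less: Hspa8 was at 2501, 1463 and 2180 CPM and Hspa5, the chaperone of the endoplasmic reticulum, at 365, 254 and 404 CPM.

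The promoters of the inducible copies are shown because these genes had the lowest ratios of the list. Windows of 250 bases upstream of the transcription start come from RefSeq (GRCm38.p6) and are read 5′ to 3′ on the strand of the gene, with matches to the heat shock element letters GAANNTTC in capitals. Both genes lie on the minus strand, and their windows are at chr17:34972157-34972406 for Hspa1a and chr17:34959239-34959488 for Hspa1b.
Hspa1a: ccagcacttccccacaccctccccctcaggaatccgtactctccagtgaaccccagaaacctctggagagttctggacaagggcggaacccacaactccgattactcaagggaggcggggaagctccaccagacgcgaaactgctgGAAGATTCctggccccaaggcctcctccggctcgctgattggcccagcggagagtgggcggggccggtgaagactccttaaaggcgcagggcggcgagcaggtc
Hspa1b: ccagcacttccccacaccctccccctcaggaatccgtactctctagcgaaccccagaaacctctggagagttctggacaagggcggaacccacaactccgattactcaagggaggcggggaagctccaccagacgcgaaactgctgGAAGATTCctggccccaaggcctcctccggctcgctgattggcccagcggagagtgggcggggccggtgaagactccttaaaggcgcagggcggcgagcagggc
Compared position by position, the windows were identical at 247 of 250 bases, and each held 1 match, 96 bases before the start. Among the 9 heat shock genes with a window, 6 held GAANNTTC (Hspa1a, Hspa1b, Hspd1, Hspe1, Dnaja1 and Hspb1), while 6.69% of all 32851 windows of this length held it on either strand. A match is a description of the letters only.

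Immediate early genes, which are transcribed within minutes of a stimulus without new protein synthesis, were also lowest in the 15 min interval. Of 24 genes on the list 17 passed the level filter, 16 were below the control in the 15 min interval and 8 were at least 2-fold lower, beside 4.94% of all genes. The median log2 ratio was -0.85 for the 15 min interval over the control, 0.26 for the 60 min interval over the control and 1.03 for the 60 min over the 15 min interval, where 10 of 17 genes were at least 2-fold higher beside 6.50% of all genes. The summed level was 8095 CPM in the control, 4729 CPM in the 15 min interval and 9502 CPM in the 60 min interval.

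The nuclear receptors Nr4a1, Nr4a2 and Nr4a3, which are induced by receptor signaling in T lymphocytes, were the immediate early genes with the widest range. Nr4a1 was at 134 CPM in the control, 24.8 CPM in the 15 min interval and 467 CPM in the 60 min interval. It was the only gene of the list at least 2-fold above the control in the 60 min interval (3.47-fold, 2.89 to 4.20), beside 0.607% of all genes. Nr4a2 was at 156, 20.1 and 274 CPM, and Nr4a3 at 114, 10.8 and 195 CPM. Gadd45b, a stress-induced regulator of kinase signaling, was at 346, 32.5 and 336 CPM. Fosl2, an AP-1 subunit, was at 185, 20.1 and 264 CPM, and Jun, another AP-1 subunit, at 603, 195 and 543 CPM.

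Fos was the 1 measured member that was not below the control in the 15 min interval. It was at 341, 358 and 438 CPM, with a log2 ratio of 0.07 (-0.18 to 0.32) for the 15 min interval over the control. Jund was at 1264, 1120 and 1637 CPM, lowest in the 15 min interval but within 2-fold of the control. Atf3 and Egr2 had no UMI in the 15 min interval, against 49 and 22 UMIs in the control and 161 and 19 UMIs in the 60 min interval. Both are low genes under the level filter, and 1 cell held 36.7% of the Atf3 UMIs and 1 cell 36.4% of the Egr2 UMIs of the control.

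The Nr4a3 promoter (GRCm38.p6, chr4:48045055-48045304, plus strand) is shown for the cyclic AMP response element core, searched as TGACGT on both strands and marked in capitals.
Nr4a3: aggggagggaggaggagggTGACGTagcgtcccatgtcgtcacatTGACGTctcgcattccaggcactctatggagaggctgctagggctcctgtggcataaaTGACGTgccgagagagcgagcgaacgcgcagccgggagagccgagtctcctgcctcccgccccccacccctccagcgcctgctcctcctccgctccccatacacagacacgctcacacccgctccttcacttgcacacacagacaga
It held 3 matches, between 141 and 225 bases before the start. Of the 21 immediate early genes with a window, 7 held TGACGT (Fos, Egr2, Nr4a3, Atf3, Dusp1, Dusp5 and Btg2), beside 6.47% of all 32851 windows and 1 of 9 heat shock genes. The GAANNTTC letters were found in 2 of the 21 immediate early windows, those of Fosl2 and Jun.

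**Figure D2:**
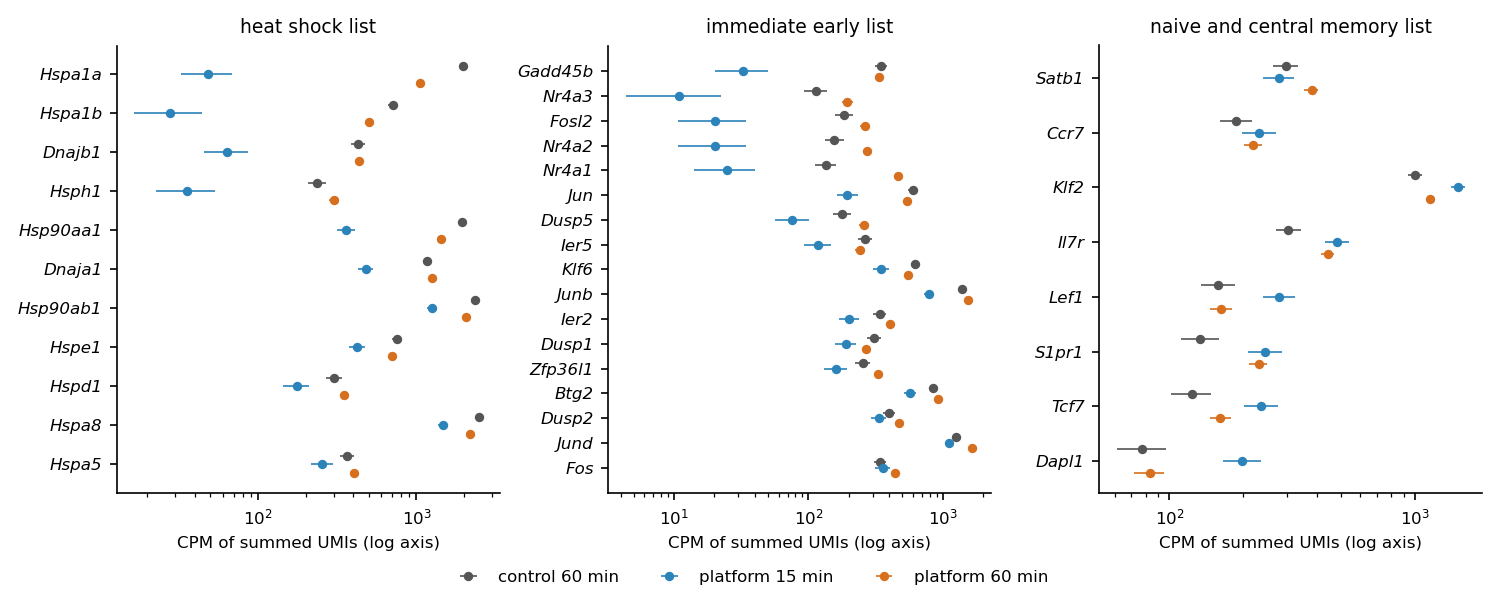
Points give the level of each gene that passed the filter on the heat shock (left), immediate early (middle) and naive and central memory list (right) in CPM of summed UMIs on a log axis, for the T lymphocytes of 1 library per condition; bars are exact 95% Poisson intervals. The 15 min points lie lowest for all 11 heat shock genes and for 16 of 17 immediate early genes, with Hspa1a at 48.0 CPM against 1966 CPM in the control.

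Genes outside these lists shared the pattern. Vps37b, a subunit of the endosomal sorting complex ESCRT-I, was at 899 CPM in the control, 118 CPM in the 15 min interval and 1064 CPM in the 60 min interval. Crem, a cyclic AMP responsive transcription factor, was at 162, 17.0 and 136 CPM, and Samsn1, an adaptor of lymphocytes, at 289.5, 41.8 and 381 CPM. All 3 were lowest in the 15 min interval. Inhibitors that NF-kB itself induces were low there too: Tnfaip3, encoding the A20 protein, was at 242, 55.8 and 360 CPM, and Nfkbia, the NF-kB inhibitor alpha, at 413, 183 and 387 CPM. Of 16 genes on the NF-kB feedback list 5 passed the filter and 3 of these were at least 2-fold below the control in the 15 min interval, beside 4.94% of all genes.

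Several cytokine and costimulatory genes of activated T lymphocytes were also lowest in the 15 min interval. Ccl4, a chemokine that draws macrophages and T lymphocytes, was at 409.5 CPM in the control, 63.5 CPM in the 15 min interval and 819 CPM in the 60 min interval, and 1 cell held 27.8%, 41.5% and 8.86% of its UMIs. Proximal tubule cells, which are not a known source of it, had 102, 11.4 and 792 CPM of Ccl4 and B lymphocytes 40.0, 15.5 and 138 CPM, and the part of RNA from outside the cell in these values was not tested. A Ccl4 UMI was found in 15.0%, 4.5% and 25.7% of thinned T lymphocytes. In thinned NK cells the Ccl4 shares were 54.1%, 60% and 87.8%, so the 15 min share was not below the control there. Ifng, the type II interferon, was at 403, 122 and 373 CPM. Its share of cells thinned to 2000 UMIs was 23.4%, 17.1% and 24.8%, against at most 0.707% of B lymphocytes. In thinned NK cells the Ifng share was 24.3%, 16% and 34.4%. Icos, a costimulatory receptor, was at 251, 68.1 and 413 CPM. It was found in 33.5%, 10.8% and 44.0% of thinned T lymphocytes and in 0 of 1079 B lymphocytes, where the limit that 3 counts set is a share of 0.278% of cells with a UMI at this thinned depth. The Icos share of thinned NK cells was 21.6%, 4% and 14.4%, also lowest in the 15 min interval. Xcl1, a chemokine for cross-presenting dendritic cells, was at 766, 204 and 654 CPM.

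Naive and central memory genes were higher in the 15 min interval. Of 10 genes on the list 8 passed the level filter and 7 of these were above the control, with a median log2 ratio of 0.74 beside -0.00 over all genes, but 1 gene, Dapl1, was at least 2-fold higher, beside 0.434% of all genes. Dapl1, a gene of naive and memory T lymphocytes, was at 77.6 CPM in the control, 198 CPM in the 15 min interval and 83 CPM in the 60 min interval (2.56-fold for 15 min over the control, 1.91 to 3.45). Tcf7 and Lef1, which encode the transcription factors TCF1 and LEF1 of naive cells, were at 123, 237 and 161 CPM and at 158, 280 and 162 CPM. Klf2, which drives the exit receptor S1pr1, was at 999.9, 1496 and 1149 CPM, and S1pr1 itself at 133, 246 and 231 CPM. Il7r, the receptor of the survival cytokine IL-7, was at 305, 483 and 441 CPM. Satb1, a chromatin organizer, was the exception, at 298, 279 and 379 CPM. Outside the list, Slamf6, a receptor of memory precursors, was at 75.5, 169 and 90.5 CPM and Bcl2, which protects from apoptosis, at 264, 471 and 307 CPM. Ribosomal protein genes were also above the control in the 15 min interval, in 73 of 79 with a median log2 ratio of 0.17 and none at 2-fold.

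Shares of cells at equal depth were also compared. Thinning each cell to 2000 UMIs kept 167, 111 and 416 T lymphocytes and left out 6, 3 and 27. A UMI of Lef1 was found in 24.6% of thinned T lymphocytes in the control (18.2% to 31.8%), 36.9% in the 15 min interval (28.0% to 46.6%) and 21.6% in the 60 min interval (17.8% to 25.9%). The 15 min share was the highest, and its interval overlapped that of the control but not that of the 60 min interval. Without thinning the Lef1 shares were 39.3%, 52.6% and 38.8%, and in proximal tubule cells, with median depths from 6155 to 7250 UMIs, the thinned share was at most 0.109%. In NK cells the thinned Lef1 share was 10.8%, 2% and 5.56%. Dapl1 was found in 8.98% (5.12% to 14.4%), 21.6% (14.4% to 30.4%) and 9.13% (6.54% to 12.3%) of thinned T lymphocytes and in none of 1079 B lymphocytes. Its 15 min share was the highest as well. Ccl5, a chemokine of effector and memory cells, went the other way, at 52.1%, 34.2% and 52.2% of thinned cells and at most 2.85% of B lymphocytes. It is not particular to T lymphocytes, since thinned NK cells held it in 100%, 90% and 92.2%. Without thinning the Ccl5 shares were 58.4%, 36.8% and 56.0%.

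Of the measured cytotoxic and residency genes, most were within 2-fold of the control in the 15 min interval. Of 18 cytotoxic genes 9 passed the filter, with a median log2 ratio of -0.21 for the 15 min interval over the control, 1 gene at least 2-fold higher (Gzma) beside 0.434% of all genes and 3 lower (Ccl4, Ifng and Fasl) beside 4.94%. Nkg7, a protein of cytotoxic granules, was at 1033, 934 and 838 CPM, and Ccl5 at 3297, 2846 and 2882 CPM. Gzma, a granule protease, was at 30.0, 232 and 77.2 CPM, but 1 cell of the 15 min interval held 133 of its 150 UMIs, and without the top cell of each library the log2 ratio of the 15 min interval to the control was 0.59 instead of 2.95 and that of the 60 min to the 15 min interval 1.30 instead of -1.59. Of 14 residency genes 9 passed, with a median of -0.42, and 2 of these (Rgs1 and Crem) were at least 2-fold lower, beside 4.94% of all genes. Rgs1, which dampens chemokine receptor signaling, was at 767, 335 and 588 CPM. Cxcr6 was at 579, 432 and 526 CPM.

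The receptor genes were within 2-fold of each other in the 3 libraries. All 4 receptor complex genes (Trac, Trbc1, Trbc2 and Cd247) passed the filter and none differed 2-fold in any pair, with medians of 0.28, -0.07 and -0.23 in the 15 min over control, 60 min over control and 60 min over 15 min pairs. Trac, the constant region of the alpha chain, was at 472, 596 and 553 CPM. Of 16 signaling genes 9 passed and none differed 2-fold from the control in the 15 min or the 60 min interval. In the 60 min over the 15 min interval 1 of the 9 was at least 2-fold higher, beside 6.50% of all genes. Of 10 interferon-induced genes 5 passed and none differed 2-fold. Of 13 regulatory and checkpoint genes 4 passed, with Icos the only one at least 2-fold lower in the 15 min interval than in the control, beside 4.94% of all genes. Foxp3, which defines regulatory T lymphocytes, had 1, 1 and 7 UMIs. None of the 8 cell cycle genes passed the filter, and a UMI of Mki67 or Top2a was found in 6.59%, 3.60% and 5.05% of thinned T lymphocytes.

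Between the 60 min interval and the control, heat shock genes were close. Of 11 heat shock genes 5 were above and 6 below the control and none differed 2-fold. Hspa1a had the largest gap among them, at 1051 CPM against 1966 CPM, a log2 ratio of -0.90 (-0.99 to -0.82). Among the 7 genes at least 2-fold higher were Nr4a1, mt-Nd4l, Gm10076, Kap, Gzma and Ccl4, and the 1 lower gene was AY036118. Cd40lg, the helper ligand of CD40, was below 2-fold at 108 CPM in the control and 198 CPM in the 60 min interval. Id2, a transcriptional regulator of innate and memory lymphocytes, was at 501 CPM in the control, 626 CPM in the 15 min interval and 318 CPM in the 60 min interval, and Ifi47, an interferon-induced GTPase, at 130, 187 and 71.7 CPM. Both were lowest in the 60 min interval. Ltb, encoding lymphotoxin beta, was at 522, 822 and 413 CPM.

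For the 60 min interval over the control, the mitochondrial gene mt-Nd4l, the predicted gene Gm10076 and AY036118 had the same direction in B lymphocytes, NK cells and proximal tubule cells of the same libraries. In the order control, 15 min and 60 min, mt-Nd4l was at 466, 338 and 1592 CPM in T lymphocytes and at 1798, 2321 and 4029 CPM in proximal tubule cells. Its 15 min level was thus below the control in T lymphocytes and above it in proximal tubule cells. AY036118, a transcript named by its sequence record, was at 927, 859 and 409 CPM in T lymphocytes and at 956, 821 and 377 CPM in B lymphocytes. Gm10076 was at 254, 451 and 797 CPM in T lymphocytes, at 223, 352 and 741 CPM in B lymphocytes and at 308, 337 and 387 CPM in the T lymphocytes of the tumor libraries. All 12 mitochondrial genes that passed the filter were below the control in the 15 min interval (median log2 -0.44) and above it in the 60 min interval (median 0.38), and the part of RNA quality in this was not tested.

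**Figure D3:**
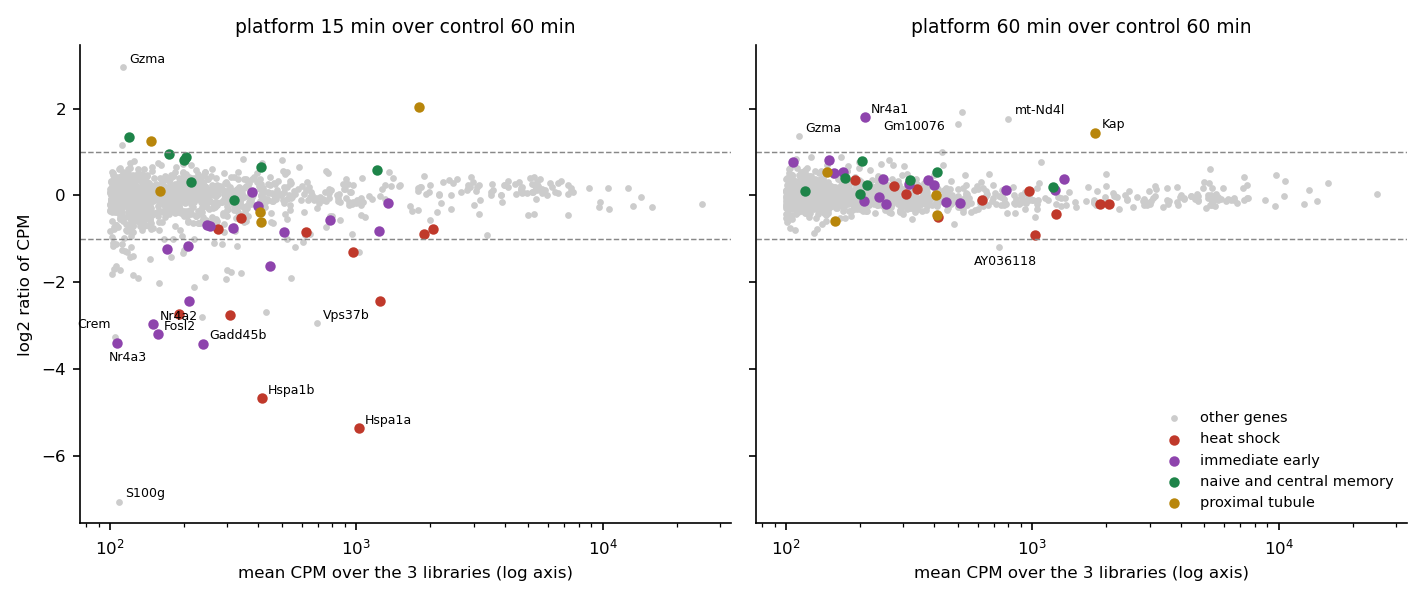
Each point is 1 of 1153 genes in T lymphocytes, with its mean CPM over the 3 libraries on the x axis (log axis) and the log2 ratio of CPM on the y axis for the 15 min interval (left) and the 60 min interval (right) over the control; colors mark 4 gene lists and dashed lines mark 2-fold. Points below the lower line are 57 on the left and 1 on the right, and Hspa1a lies at -5.36 on the left and -0.90 on the right.

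Per cell, the medians of both stress lists were lowest in the 15 min interval. In T lymphocytes thinned to 2000 UMIs, heat shock genes had a median of 16 UMIs per cell in the control (range 3 to 111), 8 in the 15 min interval (2 to 27) and 17 in the 60 min interval (1 to 171), with quartiles of 10 and 34.5, 6 and 12, and 11 and 27 UMIs. Immediate early genes had medians of 14, 8 and 17 UMIs (ranges 0 to 96, 1 to 45 and 1 to 117). The highest cell of the 15 min interval held 27 heat shock UMIs, below the upper quartile of 34.5 in the control.

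**Figure D4:**
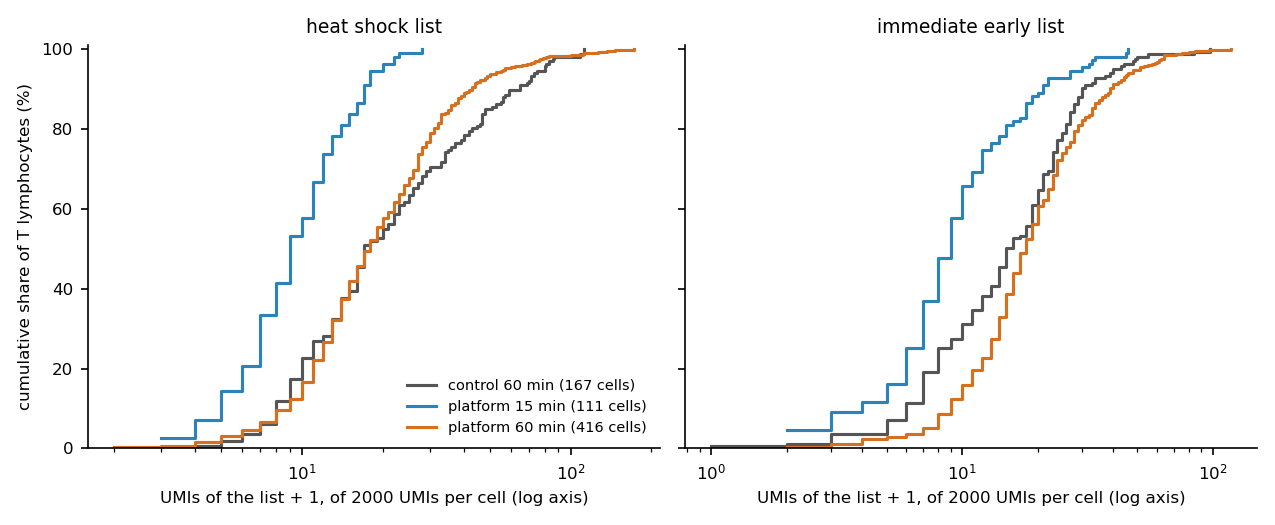
Curves give the cumulative share of T lymphocytes (y axis, %) with up to a given number of UMIs of the heat shock list (left) or immediate early list (right), plus 1, among 2000 UMIs per cell (x axis, log axis), with 167, 111 and 416 cells in the control, 15 min and 60 min libraries. The 15 min curve lies to the left of the others, with a heat shock median of 8 UMIs against 16 and 17.

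The coreceptor genes divided the T lymphocytes in similar shares in each library. Cells with a UMI of Cd8a or Cd8b1 and none of Cd4 were 37.0% of the control (64 of 173, 29.8% to 44.6%), 36.8% of the 15 min interval (42 of 114, 28.0% to 46.4%) and 33.6% of the 60 min interval (149 of 443, 29.2% to 38.2%). Cells with Cd4 and neither Cd8 gene were 10.4%, 18.4% and 16.5%, with overlapping intervals, and cells with both were 0, 2 and 1. Cells with none of the 3 genes were 52.6%, 43.0% and 49.7%. Their median depth was 4821, 4762 and 4620.5 UMIs, below that of the Cd8 cells at 6391.5, 6312 and 6405, and Cd4 was at 26.9, 44.9 and 47.1 CPM over all T lymphocytes, so a cell without a coreceptor UMI is not shown to lack the coreceptor. Thinned to 2000 UMIs, Cd8 cells were 31.7%, 35.1% and 29.3% and Cd4 cells 5.39%, 6.31% and 7.93%. Of 1079 thinned B lymphocytes, 1 held a Cd8a or Cd8b1 UMI and none a Cd4 UMI.

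Cd8 and Cd4 cells were compared on genes that do not define them. Over the summed libraries 12 of 1242 genes (0.966%) were at least 2-fold higher in Cd8 than in Cd4 cells and 37 (2.98%) at least 2-fold lower, among genes with at least 100 CPM in either group and without the genes that define the groups. On the cytotoxic list 7 of 11 measured genes were at least 2-fold higher in Cd8 cells and none lower (median log2 1.66), and on the regulatory and checkpoint list 4 of 6 were at least 2-fold lower and none higher (median -1.23), against a median of -0.11 over all 1242 genes. Some members passed the filter only through the group where they were higher, so these counts and medians are a description. Klrk1 and Runx3 passed only through Cd8 cells, and Maf, Ctla4 and Tnfrsf18 only through Cd4 cells. Ccl5 was at 4647 CPM in Cd8 cells and 1014 CPM in Cd4 cells (4.58-fold, 4.21 to 4.99), and Klrk1, the NKG2D receptor gene, at 159 and 44.9 CPM. Ly6c2, a surface protein of memory Cd8 cells, was at 575 and 171 CPM, and Runx3, a transcription factor of the Cd8 lineage, at 183 and 82.9 CPM. Each of these 4 was higher in Cd8 cells in 3 of 3 libraries. In the other direction, Maf, a transcription factor of helper cells, was at 49.0 CPM in Cd8 and 484 CPM in Cd4 cells, and Ctla4, an inhibitory receptor, at 48.4 and 152 CPM. Tnfrsf18, encoding the costimulatory receptor GITR, was at 74.8 and 185 CPM. These were lower in Cd8 cells in 3 of 3 libraries.

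Stress genes of both coreceptor groups were lowest in the 15 min interval. Hspa1a and Hspa1b together were at 2720, 60.6 and 1381 CPM in Cd8 cells (64, 42 and 149 cells) and at 1569, 179 and 2007 CPM in Cd4 cells (18, 21 and 73 cells). The Nr4a genes together were at 414, 64.1 and 782 CPM in Cd8 cells and at 612, 18.9 and 866 CPM in Cd4 cells. Gadd45b was at 268, 28.5 and 160 CPM in Cd8 cells and at 999, 66.0 and 479 CPM in Cd4 cells, and over the summed libraries it was lower in Cd8 cells (165 against 487 CPM).

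Cells with no coreceptor UMI were compared with Cd8 cells in the same way. Over the summed libraries 38 of 1279 genes (2.97%) were at least 2-fold higher in them and 7 (0.547%) at least 2-fold lower. On the gamma delta and innate-like list 2 of 15 genes were measured (Tcrg-C2 and Trdc), and both were at least 2-fold higher. Both passed the level filter only through the cells without a coreceptor UMI, so this count is a description. Tcrg-C2, a constant region of the gamma chain, was at 103 CPM in them and 5.52 CPM in Cd8 cells, and Trdc, the constant region of the delta chain, at 122 and 34.3 CPM. Fcer1g, a signaling adaptor of innate-like lymphocytes, was at 164 and 27.0 CPM, and Cxcr6 at 745 and 306 CPM. All of these were higher in 3 of 3 libraries, but Fcer1g too passed the filter only through the cells without a coreceptor UMI. Tcrg-C genes are paralogs and Trdc lies within the Trac locus, so reads of these genes may be assigned with some uncertainty.

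A UMI of Trdc was found in 45 of 730 T lymphocytes (6.16%, 4.53% to 8.16%), namely 7.51%, 7.89% and 5.19% of the 3 libraries, and 34 of these 45 cells held no Trac UMI. After thinning to 2000 UMIs, Trdc was found in 5.04% of 694 T lymphocytes, 12.4% of 177 NK cells and 0 of 1079 B lymphocytes, so a Trdc UMI does not mark a gamma delta T lymphocyte by itself. A Tcrg-C UMI was found in 168 cells (23.0%), of which 129 also held Trac and 36 Trdc, and 11 held a Cd8 gene. The gamma variable gene Trgv2 was found in 84 cells (11.5%), in 19, 7 and 58 cells of the 3 libraries, and 5 of the 84 held a Cd8 gene. Of the alpha and beta variable genes the most frequent were Trbv12-2 in 23 cells and Trav11, the alpha segment used by invariant NKT cells, in 16 cells (5, 1 and 10). Alpha and beta variable genes were found in 20.3% and 12.1% of the T lymphocytes, so the files cannot give a clonal makeup.

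Other lymphocytes of the same libraries had the low heat shock values of the 15 min interval too. In B lymphocytes 6 of 11 measured heat shock genes were at least 2-fold below the control (median log2 -1.18), beside 2.67% of all their genes, and in NK cells 6 of 11 (median -1.38), beside 6.06%. In proximal tubule cells it was 2 of 9, beside 1.30%, and the list median of -0.26 was near the -0.27 of all their genes. A UMI of Hspa1a or Hspa1b was found in 58.7% (50.8% to 66.2%), 8.11% (3.77% to 14.8%) and 53.8% (48.9% to 58.7%) of thinned T lymphocytes, in 41.3%, 4.26% and 47.2% of B lymphocytes and in 8.22%, 1.41% and 24.3% of proximal tubule cells. Without thinning the T lymphocyte shares were 67.6%, 16.7% and 65.7%.

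Of 14 immediate early genes measured in B lymphocytes, 1 was at least 2-fold higher in the 15 min interval than in the control, beside 1.60% of all their genes, and 2 were lower, beside 2.67% (median log2 -0.10). NK cells had 6 lower of 17 (median -0.53), beside 6.06%. In proximal tubule cells 5 genes of the list were measured and 4 were lower (median -1.655), beside 1.30% of all their genes. The low 15 min values of this list were thus not particular to T lymphocytes. A UMI of Nr4a1, Nr4a2 or Nr4a3 was found in 37.7% (30.4% to 45.5%), 8.11% (3.77% to 14.8%) and 69.0% (64.3% to 73.4%) of thinned T lymphocytes, in 43.1%, 24.7% and 65.6% of B lymphocytes and in at most 4.96% of proximal tubule cells. Fos was at 354, 915 and 571 CPM in B lymphocytes. These classes come from the same 3 libraries, so they do not replicate the conditions.

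T lymphocytes of the tumor libraries (239, 170 and 272 cells in the control, 15 min and 60 min libraries, chosen by the same rule with limits of 4000 genes and 25% mitochondrial UMIs) had no low 15 min values of the heat shock and immediate early lists against their control. Their heat shock list had a median log2 ratio of -0.11 for the 15 min interval over the control, with 1 of 10 genes at least 2-fold lower beside 3.12% of all genes. Their immediate early list had a median of 0.90, with 9 of 22 genes at least 2-fold higher beside 3.43% of all genes. In the 60 min interval over the control, 4 of 10 heat shock and 12 of 22 immediate early genes were at least 2-fold higher beside 5.70% of all genes. In the 60 min over the 15 min interval, 5 of 10 heat shock genes (median log2 1.08) and 4 of 22 immediate early genes (median 0.12) were, beside 4.45%. Hspa1a was at 79.0 CPM in the tumor control, 68.6 CPM in the 15 min and 1364 CPM in the 60 min interval, so the tumor control lay near its 15 min interval and the kidney control near its 60 min interval. Crem and Vps37b were low in the 15 min interval of the tumor as well, at 517, 71.0 and 367 CPM and at 1047, 456 and 873 CPM. The difference between the tissues was not tested. Median depth was 7959, 6613.5 and 4385 UMIs, and tissue, strain, age and sex differ together from kidney, so their parts cannot be told apart.

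**Figure D5:**
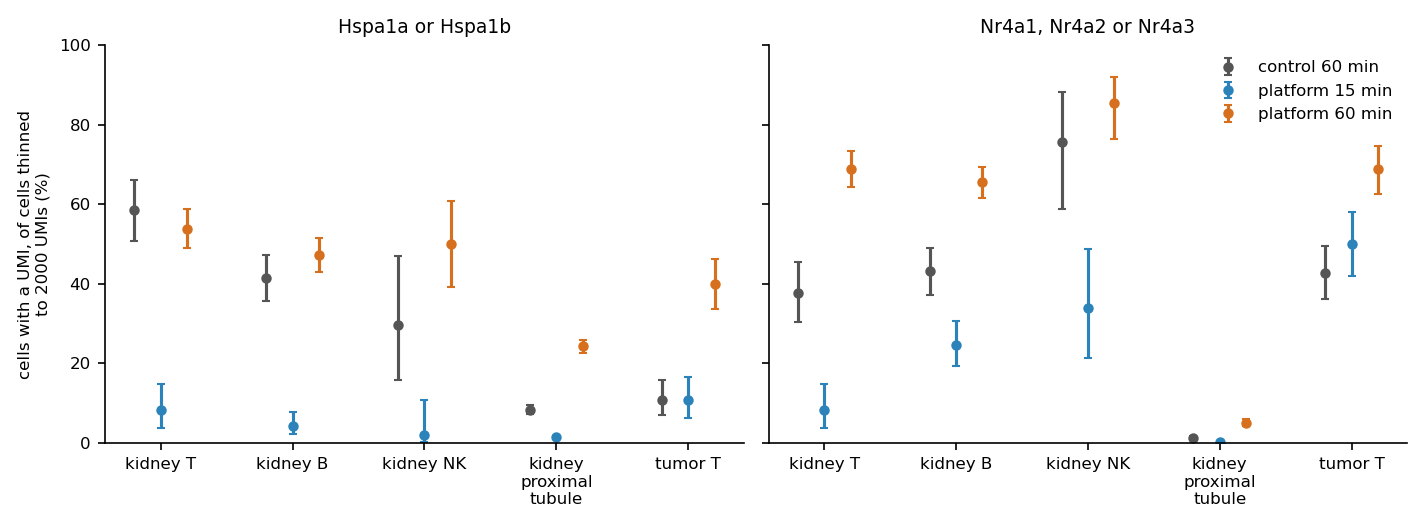
Points give the share of cells (%), each thinned to 2000 UMIs, with a UMI of Hspa1a or Hspa1b (left) or of Nr4a1, Nr4a2 or Nr4a3 (right) in kidney T, B, NK and proximal tubule cells and tumor T lymphocytes, by condition; bars are exact 95% binomial intervals. The kidney T lymphocytes of the 15 min interval lie at 8.11% in both panels, and the tumor T lymphocytes of the 15 min interval at 10.6% and 50%.

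Transcripts of other kidney cells were found in the T lymphocytes and differed between the libraries. Of 6 proximal tubule markers 5 passed the filter, with none at 0, and their summed level was 1934 CPM in the control, 3930 CPM in the 15 min interval and 2994 CPM in the 60 min interval. Kap, an androgen-regulated gene of the proximal tubule, was found in 57.5%, 73.9% and 69.0% of thinned T lymphocytes and in 75.6%, 88.9% and 77.2% of thinned B lymphocytes. Its level was 692, 2820 and 1887 CPM in T lymphocytes, with 1 cell holding 20.5%, 34.8% and 19.9% of it. Slc34a1, the sodium phosphate transporter of the proximal tubule, was at 91.0, 217 and 133 CPM, and both were among the 5 genes at least 2-fold higher in the 15 min interval. S100g, a calcium-binding protein of kidney tubules, was at 206, 1.55 and 119 CPM in T lymphocytes, from 199, 1 and 285 UMIs of which 1 cell held 49.2% in the control, and at 244, 24.9 and 239 CPM in proximal tubule cells. Umod, of the loop of Henle, had 13, 68 and 250 UMIs, and 1 cell held all 68 of the 15 min interval. The part of such RNA in the results was not tested.

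Markers of other cells were summed over the T lymphocytes. The rule removed cells by Cd79a, Ncr1, C1q and Pecam1 UMIs, so it partly set low sums for B cells, NK cells, macrophages and endothelium, and these do not measure purity. The B cell gene Ms4a1 had no UMI in any library, and the 6 B cell markers summed to between 139 and 178 CPM, mostly Ighm. The 5 macrophage markers summed to between 10.8 and 58.4 CPM, the 5 endothelial markers to between 6.19 and 67.2 CPM, and the granulocyte markers to at most 1.67 CPM. The 4 dendritic cell markers summed to 189, 110 and 255 CPM in the 3 libraries, and the 6 NK cell markers to 219, 177 and 187 CPM. Cd74, an invariant chain of antigen-presenting cells, was found in 8.38%, 3.60% and 19.2% of thinned T lymphocytes and in 11.3%, 5.20% and 21.0% of thinned proximal tubule cells.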

How the data were processed

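Single cells of kidney and tumor were measured in 6 libraries, 1 per condition. The authors deposited UMI counts per gene and cell for each tissue as 1 matrix, made with Cell Ranger 3.1.0 according to the submitters' processing notes and with mm10 as the genome build. The study's methods state that Cell Ranger Aggr normalized mapped reads between libraries, so the joined counts carry that step. Each cell was assigned to its library by the suffix of its barcode. The limits on cells (200 to 3000 genes and at most 50% mitochondrial UMIs in kidney, 200 to 4000 genes and at most 25% in tumor) and the rule for T lymphocytes were applied to these counts, and no doublet caller was run, so doublets were limited by the gene limit and the excluded genes only.

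UMIs of T lymphocytes were summed per library and divided by their total (CPM). Ratios carry no pseudocount, and where a library had no UMI the floor of 3 counts was used. Genes with a mean of at least 100 CPM were compared, and 2-fold was the size counted. Error ranges at 95% are exact (Clopper-Pearson for shares, Poisson for levels) and hold no error beyond that of counting. Shares of cells with a UMI were also computed after thinning each cell to 2000 UMIs. As each condition had 1 library, no test was run.

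The named genes were those of the gene lists and, for each pair of libraries, the 10 highest and 10 lowest ratios among genes whose intervals did not overlap, and the 10 genes highest over B and over NK cells. The members and the lists were chosen with earlier results of these data known. Genes or cells outside this rule that are named (Xcl1, the coreceptor, gamma delta and variable genes, and those of other cell types) were chosen after their values were seen. Alternatives were other cell limits, Cd3 minimums, level filters, scalings and subsets of cells. The computation was tested on simulated counts. Python 3.11.15, numpy 2.4.6, scipy 1.17.1, pandas 2.3.3 and matplotlib 3.10.9 were used. Results that need a few further genes are not reported here.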

Additional observations from a re-analysis of the deposited data

Results flagged for a closer look

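In 4 cases a gene differed at least 2-fold in opposite directions between kidney and tumor T lymphocytes. Each tissue had 1 library per condition, so the difference between tissues was not tested, and tissue, strain, age and sex differ together. The make-up of the tumor T lymphocytes also differed between their libraries. For the 15 min interval over the control, Jun had a log2 ratio of -1.63 in kidney and 1.67 in tumor T lymphocytes, a difference of -3.30. Nr4a1 had -2.44 and 2.33, a difference of -4.76, and Nfkbia had -1.18 and 1.30, a difference of -2.47. For the 60 min interval over the control, Gzma had 1.36 in kidney and -3.22 in tumor T lymphocytes, a difference of 4.58, and in kidney 1 cell of the control held 41.4% of the 29 Gzma UMIs. The tumor value too rests on few cells, since a Gzma UMI was found in 13 of 239 control and 6 of 272 60 min cells.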

How the results depend on the processing

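No paired analysis was possible because each condition had 1 library and no comparison came from a test. Most values moved by less than their counting error, or by less than 1.5 times for gene counts: 17 of 24 share values, 25 of 36 coreceptor shares, 23 of 36 gene counts and 126 of 144 list medians. The alternatives on shared barcodes and on top cells were chosen after seeing the data. The cause of the shifts was not tested where none is named.

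The share of T lymphocytes was 2.44%, 1.10% and 3.95% in the control, 15 min and 60 min libraries with no upper limit on genes, which adds other cells. With at most 25% mitochondrial UMIs it was 2.01% and 5.06% in the 15 min and 60 min intervals, and with at least 1 or 5 Cd3 UMIs 5.08% and 4.05% in the 60 min interval. The 15 min share was the lowest under each of these. Cd4 shares depend on depth, at 5.39%, 6.31% and 7.93% after thinning to 2000 UMIs, 4.05%, 6.14% and 3.89% after thinning to 1000, and 4.62%, 4.39% and 4.97% with at least 2 coreceptor UMIs, and Cd8 shares were 23.7% and 23.1% in the control and 60 min libraries after thinning to 1000.

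The numbers of genes past 2-fold, 62, 8 and 80 for 15 min over control, 60 min over control and 60 min over 15 min, were 119, 20 and 149 with a filter of 50 CPM and 2126, 1306 and 1935 with no filter beyond 1 UMI. With 200 CPM they were 29 for 15 min over control and 37 for 60 min over 15 min. Each of these filters compared another number of genes than the 1153 of the main setting, so the counts do not compare rates. With no upper limit on genes, 20 genes passed for 60 min over control, and for 15 min over control 20 were higher and 51 lower. Among Cd4 cells alone, few in number, the counts were 166, 69 and 131. In Cd8 cells 18 passed for 60 min over control. Both subsets kept the gene filter of the main setting. Scaling by median of ratios, without mitochondrial and ribosomal genes, by mean of cells or after thinning moved no total by more than 1.5 times. After thinning, 12 genes passed for 60 min over control instead of 8, 9 of them higher and 3 lower instead of 7 and 1.

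The heat shock median for 15 min over control was -1.09 with 200 CPM, -1.86 with no filter and -1.66 in Cd4 cells. For 60 min over 15 min it was 1.20, 1.70 and 2.16 in the same settings, and 1.10 in Cd8 cells. For 60 min over control it was -0.29 in Cd8 and 0.29 in Cd4 cells. The immediate early median for 15 min over control was -1.19 in Cd8 cells, and for 60 min over control 0.066 in Cd4 cells. The NF-kB median, over 5 genes, was -1.50 and 1.63 without shared barcodes (15 min over control and 60 min over 15 min), -1.66 and 1.61 in Cd4 cells, and -0.048 in Cd8 cells (60 min over control). The naive median was 0.42 and 0.029 in Cd4 cells for 15 min and 60 min over control. Without the top cell of each library, the Gzma ratios were 0.59 and 1.30, and the Kap ratios 1.76 and -0.30, for 15 min over control and 60 min over 15 min.

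A single library per condition limits every comparison: the run of a library cannot be told apart from its condition, and the spread between mice was not measured. Depth limits the rarer genes most, such as Foxp3 with 9 UMIs over 730 cells. Cells without a coreceptor or receptor UMI are not shown to lack the gene.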
